A study of Rattus norvegicus with 12 samples.

Results

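Non-induced PC12 cells kept in the vehicle DMSO were described from 3 arrays, out of 12 arrays in the series. The 3 were chosen by their titles alone, and no measured value entered the choice. PC12 is a line from a rat pheochromocytoma, a tumour of the adrenaline- and noradrenaline-producing chromaffin cells of the adrenal medulla. The study asked how guanabenz analogues change gene expression in cells that make a fragment of mutant huntingtin. Its 4 groups of 3 arrays were non-induced cells in DMSO, induced cells in DMSO, and induced cells given compound 3 or compound 6 at 10 µM for 48 h. All 4 groups are cells of a PC12 model with an inducible GFP-tagged exon-1 fragment of huntingtin with 74 glutamines, so the non-induced cells carry that transgene too. The inducer, doxycycline at 1 µg/ml, was added to the induced groups and not to the cells described here. The labels do not say whether the line is a single clone or whether the numbered replicates are separate cultures, so the spread between the 3 arrays may be technical. Each array received RNA from bulk culture, in which few cells at a high level cannot be told apart from many cells at a low level.

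Chromaffin cells make catecholamines from tyrosine in a short chain of enzymes. Tyrosine hydroxylase makes L-DOPA, aromatic amino acid decarboxylase turns it into dopamine, dopamine beta-hydroxylase makes noradrenaline inside the secretory granule, and phenylethanolamine N-methyltransferase makes adrenaline. The amines are stored in dense-core granules together with granins, and they are released when acetylcholine opens nicotinic receptors at the cell surface. PC12 cells keep much of this programme in culture, divide continuously, and are widely used as a model of sympathetic neurons because nerve growth factor makes them extend neurites.

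Levels are deposited log2 signals, averaged over the 3 arrays, for 22093 genes that carried 1 symbol on the Affymetrix Rat Transcriptome Array. A gene with more than 1 feature (a transcript cluster of the array) was represented by its brightest. The named genes ran from 1.57 to 13.19 with a median of 6.05, and 47 of them lay at 12 or more. Each gene was also given its rank, with 1 for the highest mean, and its percentile among the named genes. A rank is an order of array signal: probes differ in how brightly they report the same amount of RNA, so it is not an order of transcript abundance, and it has no counting error attached because arrays give no counts.

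Both a lower and an upper landmark were used to read the levels. The lower landmark was 4.68 log2 units, the 95th percentile of the 1264 features for olfactory receptors, a family that few cells outside the nose transcribe. Of the named genes 15124 (68.5%) lay above it by their mean, and 14876 did so on each of the 3 arrays. The upper landmark came from 23 background features of the array that differ in their content of G and C. Their means climbed from 1.47 for the dimmest to 7.61 for the brightest, so a GC-rich probe can reach 7.61 with no target. Above 7.61 lay 6961 named genes (31.5%), between the landmarks 8163 (36.9%), and at or below the lower landmark 6969 (31.5%). Values between 4.68 and 7.61 lie within the range of the background features, and a gene there was not called present or absent.

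**Figure D1:**
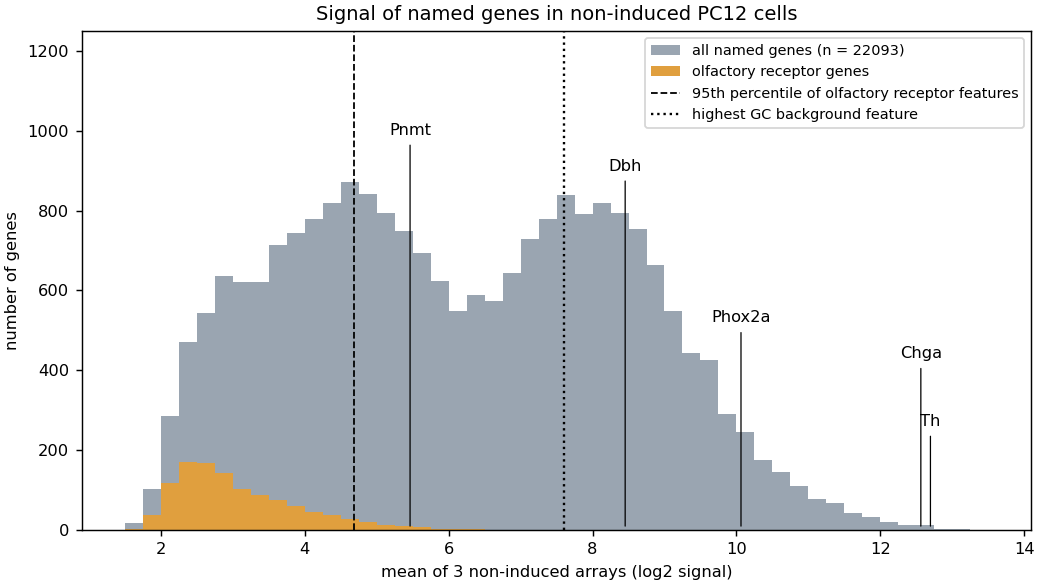
Histogram of the mean log2 signal of the 22093 named genes on the 3 non-induced arrays (grey, number of genes per bin) with the olfactory receptor genes in orange. The dashed line marks 4.68 and the dotted line 7.61 log2 units. Th, Chga, Phox2a and Dbh lie to the right of the dotted line at 12.70, 12.56, 10.06 and 8.45, and Pnmt lies between the lines at 5.46.

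**Figure D2:**
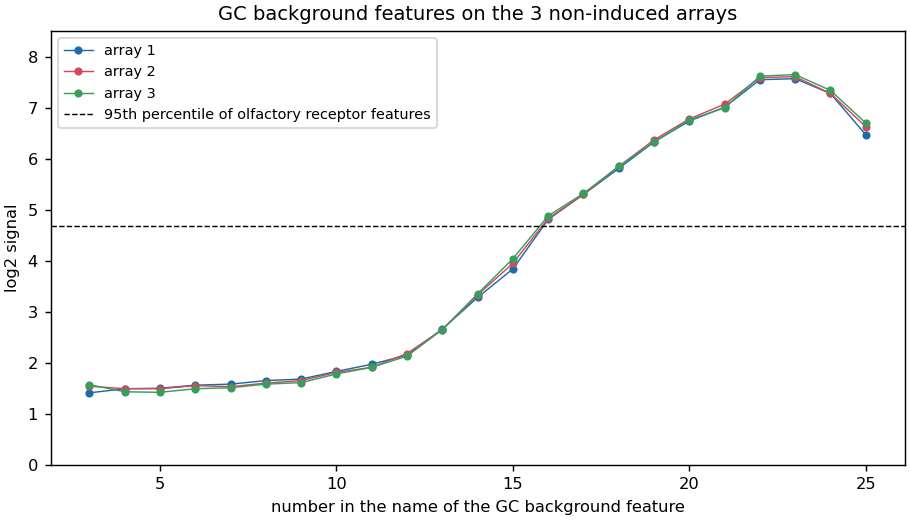
Log2 signal of the 23 GC background features on each of the 3 non-induced arrays, against the number in the feature's name. The signal stays near 1.5 at the lowest numbers, crosses the dashed line at 4.68 in the middle and reaches 7.61 near the upper end, with the 3 arrays close together throughout.

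The 3 arrays resembled each other closely. Their medians over all features were 4.63, 4.61 and 4.63, and the correlation across features was 0.997 to 0.998 for each pair. Array 1 stood slightly apart. The standard deviation of the difference across named genes was 0.130 and 0.136 for pairs with array 1, and 0.109 between arrays 2 and 3. Over the named genes the median SD between the 3 arrays was 0.057 log2 units. It was 0.077 in the lowest decile of levels and 0.046 in the highest decile, so brighter genes were measured with less scatter. The counts given for each gene group are to be read against all named genes, of which 31.5% lay above the upper landmark and 68.5% above the lower one. A share near these is not a result about the group. Values are given below as the 3 arrays in order, or as the mean with its SD (n = 3 throughout).

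All 4 genes used to identify the chromaffin lineage lay above the upper landmark. Th, tyrosine hydroxylase and the rate-limiting enzyme of catecholamine synthesis, had signals of 12.81, 12.58 and 12.70. Its mean of 12.70 ± 0.12 (SD) placed it at rank 9 of 22093, between ranks 7 and 14 on single arrays. Chga, chromogranin A, the acidic protein that fills dense-core granules, gave 12.56, 12.56 and 12.57 and stood at rank 15. Both genes therefore sat among housekeeping genes such as Gapdh (12.63) on every array. Phox2a, a homeodomain factor that drives the noradrenergic programme, had 10.15, 10.11 and 9.93, a mean of 10.06 ± 0.12 (SD) and rank 876. Dbh, dopamine beta-hydroxylase, had 8.64, 8.43 and 8.29, a mean of 8.45 ± 0.18 (SD) and percentile 80.9. Dbh was thus well above the background features but far from the extreme position of Th, and its highest value came from array 1. Without array 1 the means were 12.64 for Th, 12.57 for Chga, 10.02 for Phox2a and 8.36 for Dbh.

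The stretch of DNA just upstream of Th, Phox2a and Dbh is shown. The reason is that Th is known to be driven through a cyclic AMP response element near its start. Chga had no entry in the promoter sequences used, and the granin Chgb is shown as well. The windows hold the 250 bases before the RefSeq transcript start on the gene's own strand, in the rat assembly GRCr8. They lie at chr1:207508219-207508468 on the minus strand for Th, chr1:165590507-165590756 on the plus strand for Phox2a, chr3:30886078-30886327 on the plus strand for Dbh and chr3:140496462-140496711 on the plus strand for Chgb, the granin with the highest signal. Capitals mark matches to the motifs searched on both strands: the cyclic AMP response element TGACGTCA, the GC box GGGCGG, the CCAAT box and the TATA box TATAAA, none of which contains another.
Th: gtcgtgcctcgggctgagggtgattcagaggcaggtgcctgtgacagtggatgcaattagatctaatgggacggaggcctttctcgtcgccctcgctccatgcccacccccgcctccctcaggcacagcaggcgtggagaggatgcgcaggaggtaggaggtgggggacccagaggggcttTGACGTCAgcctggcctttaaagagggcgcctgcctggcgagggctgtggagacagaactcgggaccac
Phox2a: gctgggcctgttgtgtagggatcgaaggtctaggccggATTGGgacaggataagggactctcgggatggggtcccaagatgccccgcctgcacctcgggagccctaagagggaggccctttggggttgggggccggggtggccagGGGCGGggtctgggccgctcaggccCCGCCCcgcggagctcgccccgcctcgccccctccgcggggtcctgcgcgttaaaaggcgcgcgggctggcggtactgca
Dbh: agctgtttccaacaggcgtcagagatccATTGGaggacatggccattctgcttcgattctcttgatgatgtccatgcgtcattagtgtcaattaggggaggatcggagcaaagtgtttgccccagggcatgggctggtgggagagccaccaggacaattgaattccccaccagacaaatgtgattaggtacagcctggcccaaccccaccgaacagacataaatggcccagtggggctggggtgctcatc
Chgb: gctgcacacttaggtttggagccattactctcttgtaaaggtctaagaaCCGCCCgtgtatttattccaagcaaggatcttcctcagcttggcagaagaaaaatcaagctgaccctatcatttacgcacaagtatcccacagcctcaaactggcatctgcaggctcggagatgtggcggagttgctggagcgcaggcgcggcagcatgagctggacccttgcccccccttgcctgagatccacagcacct
The Th window holds TGACGTCA beginning 69 bases before the start. The Phox2a window holds GGGCGG on the plus strand and again on the other strand, 105 and 80 bases before the start, and a CCAAT box on the other strand at 212. The Dbh window has a CCAAT box on the other strand at 222, and the Chgb window a GC box on the other strand at 201. The Phox2a window was the richest in G and C at 72.0%, followed by Th at 64.0%, with 53.6% for both Dbh and Chgb. Among 15894 protein-coding named genes with such a window, 2.25% held the cyclic AMP response element. A match describes letters only and is not evidence that a factor binds there.

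The enzymes of catecholamine synthesis and of its cofactor were mostly bright, with adrenaline synthesis as the exception. Of 10 measured genes of this group, 8 lay above the upper landmark, 2 between the landmarks and none below, and their median of 9.24 compares with 6.05 over all named genes. Gch1, GTP cyclohydrolase, the entry enzyme to the tetrahydrobiopterin that Th needs, averaged 11.07 ± 0.10 (SD). Cyb561, the granule cytochrome that passes electrons to ascorbate for Dbh, had 10.44, 10.49 and 10.55. Qdpr, which regenerates tetrahydrobiopterin, averaged 9.45, and Spr, which completes its synthesis, 9.24. Ddc, the decarboxylase that makes dopamine, had 9.43, 9.11 and 9.18, higher on array 1 than on the other arrays. Pnmt, the enzyme that methylates noradrenaline to adrenaline, had 5.44, 5.48 and 5.47 at percentile 43.0, inside the background range. Pts, the middle enzyme of cofactor synthesis, also lay there at 7.10, and Gchfr, the feedback protein of Gch1, lay just above it at 7.78.

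**Figure D3:**
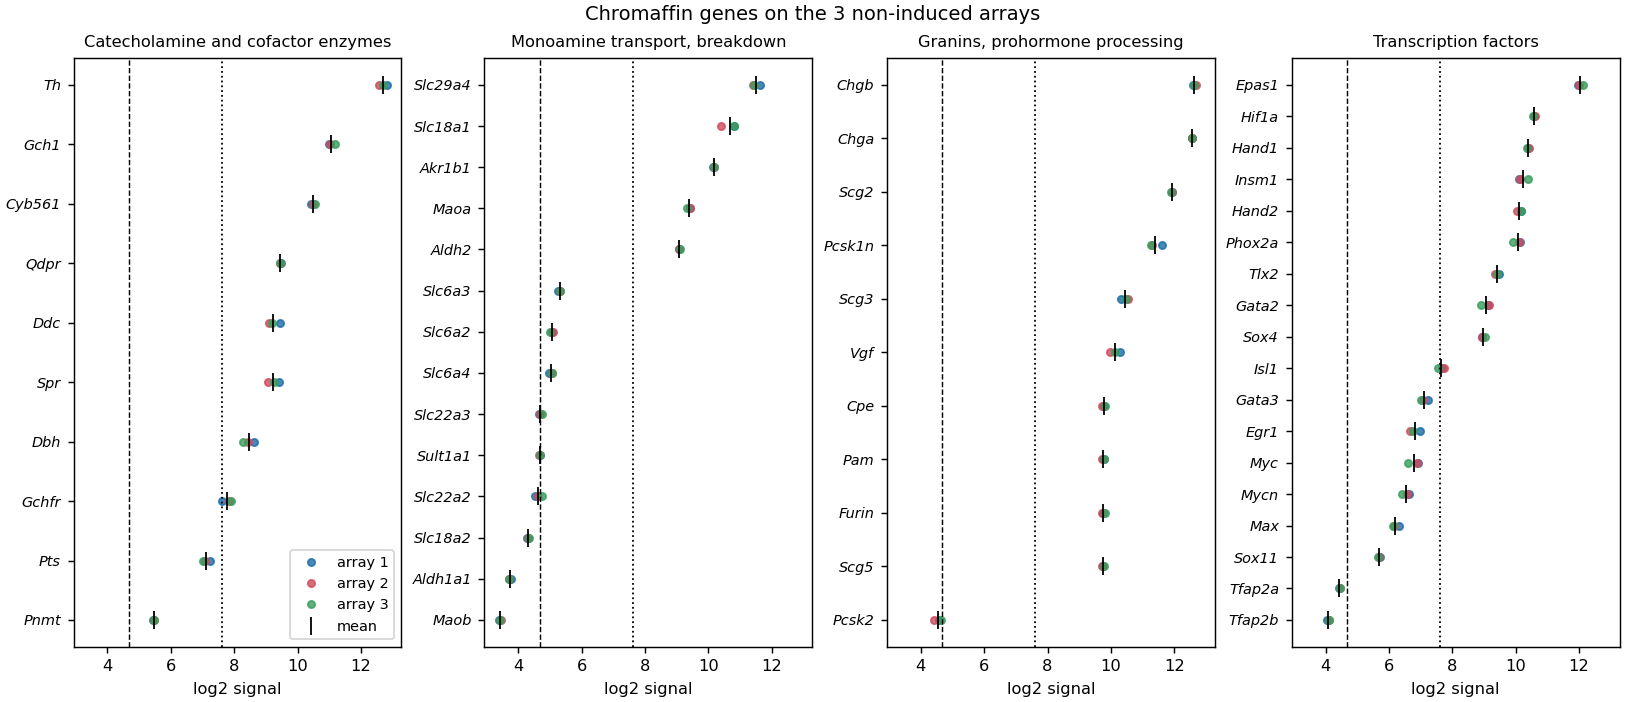
Log2 signal on each of the 3 non-induced arrays (coloured points) and their mean (bar) for 4 groups of chromaffin genes. The dashed line is at 4.68 and the dotted line at 7.61 log2 units. In the first panel Th leads at 12.70 and Pnmt closes at 5.46, in the second Slc18a1 at 10.67 stands far to the right of Slc18a2 at 4.31, and in the third Pcsk2 at 4.54 is the single gene left of the dotted line.

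Transporters and breakdown enzymes of the monoamines spread over the bands much as all named genes did. Within that spread, Slc18a1, the vesicular monoamine transporter typical of endocrine cells, had 10.80, 10.40 and 10.80, and Slc18a2, the transporter typical of neurons, had 4.28, 4.30 and 4.35. The first was above the background features on every array and the second below the lower landmark on every array. Of the monoamine oxidases, which degrade the amines, Maoa averaged 9.38 and Maob 3.42, again without overlap. Slc29a4, a plasma membrane monoamine transporter of low affinity, reached 11.62, 11.42 and 11.44, rank 122. The high-affinity carriers did not stand out: Slc6a2 for noradrenaline averaged 5.05, Slc6a3 for dopamine 5.30 and Slc6a4 for serotonin 5.03, all within the background range. Akr1b1, an aldehyde-reducing enzyme, averaged 10.16 and Aldh2, which oxidises aldehydes, 9.08, with Aldh1a1 at 3.72. In all, 5 of 14 measured members lay above the upper landmark, 4 between and 5 at or below the lower one, against 31.5%, 36.9% and 31.5% of all named genes.

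Granule proteins formed one of the brightest groups. Of 11 measured granins and prohormone-processing genes, 10 lay above the upper landmark and in the highest decile of named genes, with a median of 10.14. Chgb, chromogranin B, had 12.60, 12.68 and 12.63 at rank 11, and Scg2, secretogranin II, had 11.94, 11.94 and 11.89 at rank 59. Pcsk1n, an inhibitor of prohormone convertase, had 11.62, 11.30 and 11.26. Vgf, a granin-like protein known as a nerve growth factor target in PC12 cells, averaged 10.14 ± 0.16 (SD). The processing enzymes Cpe, Pam and Furin sat together at 9.78, 9.76 and 9.76, a spacing smaller than the scatter between arrays. The exception was Pcsk2, a prohormone convertase, with 4.56, 4.42 and 4.65, below the lower landmark on all 3 arrays.

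Most precursors of the peptides such granules can carry lay within the background range, where presence cannot be called. Of 23 measured neuropeptide precursors 1 lay above the upper landmark, 16 between the landmarks and 6 at or below the lower one, with a median of 5.11. The 17 above the lower landmark compare with 68.5% of all named genes. The gene above was Adm, the vasodilator peptide adrenomedullin, with 11.25, 11.11 and 11.35 at rank 187. The next was Cck, cholecystokinin, at 6.71. Npy, a neuropeptide common in sympathetic neurons, had 5.96, 5.82 and 5.80, and Penk, proenkephalin, averaged 5.16. Tac1 (substance P), Nts (neurotensin) and Adcyap1 (PACAP) were the lowest of the group at 3.29, 3.30 and 3.69.

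The machinery of regulated release was mostly bright, with some dim paralogs. Of 35 measured genes 25 lay above the upper landmark and 4 at or below the lower one. Syp, synaptophysin of the vesicle membrane, had 12.28, 12.20 and 12.26 at rank 29, and Snap25, a membrane-fusion protein of the plasma membrane, had 11.74, 11.52 and 11.38. Doc2b and Syt4, both proteins of the secretory pathway, each averaged 10.62. Among the 17 synaptotagmins measured, 8 lay above the upper landmark. Syt4 led and Syt17 (9.48), Syt9 (9.26) and Syt5 (9.22) followed. Syt1, the fast calcium sensor of synapses, averaged 8.38 on 1 feature and 2.19 on its other, so its position depends on the feature. Cadps2, a granule-priming factor, averaged 3.93, and its paralog Cadps 9.05. Sv2a, a vesicle glycoprotein, averaged 9.03, with its relatives Sv2b and Sv2c at 4.36 and 4.01. The Rab GTPases that direct membrane traffic were led by Rab7a (11.50), Rab8a (11.12), Rab5a (10.89) and Rab5c (10.65), and 31 of 54 lay above the upper landmark.

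Transcription factors of the sympathoadrenal lineage followed a graded order. Of 18 measured, 10 lay above the upper landmark, 6 between and 2 at or below the lower one. Epas1, the hypoxia-inducible factor HIF-2 alpha, which is mutated in some human pheochromocytomas, had 11.97, 12.01 and 12.14 at rank 40. Its relative Hif1a averaged 10.58, Hand1 10.40, Insm1 10.22 and Hand2 10.12. Hand1, Insm1 and Hand2 act in sympathetic and neuroendocrine differentiation. The arrays of Hand1, Insm1, Hand2 and Phox2a overlapped each neighbour in this order, so their positions are not resolved. Gata2 averaged 9.06 and Gata3 7.11. Max, the partner of Myc that PC12 cells are known to lack as a functional protein, had 6.31, 6.16 and 6.12, inside the background range. The array reads RNA and says nothing about the Max protein. Tfap2a and Tfap2b, neural crest factors, were the lowest of the group at 4.44 and 4.09.

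Of the other families of patterning factors, Hox, Pax, Nkx and Sox genes had smaller shares above the upper landmark than all named genes (31.5%), and T-box genes a similar one. Of 33 Hox genes, which record position along the body axis, 4 lay above the upper landmark: Hoxc9 with 10.36, 10.24 and 10.26, Hoxb2 at 8.28, Hoxa6 at 8.22 and Hoxc6 at 8.15. The Hoxa6 feature has an ID that does not name the gene's RefSeq chromosome. Of 12 T-box genes 4 did: Tbx20, best known from heart development, with 10.76, 10.85 and 10.69, Tbx3 (8.32), Tbx4 (8.01) and Tbx2 (7.90). Hey1, a Notch target, averaged 9.36 and was the third of 3 neural basic helix-loop-helix genes above the upper landmark, with Hand1 and Hand2. Of 9 Pax genes and 13 Nkx genes, none lay above it, the highest being Pax5 at 7.15 and Nkx1-1 at 7.49. Sox4 (8.97) and Sox12 (8.78), related factors of neural progenitors, were the Sox genes above it, of 18.

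Nicotinic acetylcholine receptors are those through which splanchnic nerves drive chromaffin cells. Of their 16 subunit genes 5 lay above the upper landmark, a share close to the 31.5% of all named genes, and the 5 were neuronal subunits. Chrna3 had 11.13, 11.01 and 11.10, Chrnb2 9.73, 9.89 and 9.85, and Chrna7 9.31, 9.46 and 9.18. Chrnb4 averaged 8.19 and Chrna5 7.80, the subunits that lie with Chrna3 in a single gene cluster in mammals. Of the muscle-type subunits, Chrnb1 averaged 6.99 and Chrna1 4.89. Of 5 muscarinic receptors none exceeded the upper landmark, and Chrm4 was the highest at 7.21.

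Growth factor receptors were led by Ngfr, the low-affinity receptor for nerve growth factor, with 10.54, 10.37 and 10.35. Sort1, its co-receptor for pro-neurotrophins, averaged 9.75. Ret, the receptor kinase of the GDNF family and a gene of hereditary pheochromocytoma, had 9.80, 9.11 and 9.48, an SD of 0.35 that is among the larger ones here. Of the co-receptors that present GDNF ligands to Ret, Gfra3 averaged 6.73 and Gfra1 5.02, within the background range. Gfra2 averaged 4.67, just under the lower landmark. Fgfr1 and Egfr, whose ligands act on PC12 growth and differentiation, averaged 8.49 and 8.46. Ntrk2 and Ntrk3, receptors for other neurotrophins, averaged 4.35 and 4.11, and Met, the hepatocyte growth factor receptor, was lowest of 24 at 3.57.

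Purinergic receptors, which respond to ATP, ADP and adenosine, had 4 of 18 members above the upper landmark. Adora2a, a receptor for adenosine, had 10.41, 9.85 and 10.14. P2rx2, an ATP-gated channel, had 9.13, 8.69 and 8.78. P2ry12, an ADP receptor, had 8.60, 8.65 and 8.51, and P2rx4, another ATP-gated channel, averaged 7.94. Adora2a and P2rx2 were both highest on array 1, while P2ry12 was even across the arrays.

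Guanabenz, the parent of the study's compounds, is known as an alpha-2 adrenergic agonist with affinity for imidazoline sites, and its known targets differed widely in signal. Of the alpha-2 receptors, Adra2a had 4.51, 4.66 and 4.45, below the lower landmark. Adra2b had 5.82, 5.68 and 5.72, and Adra2c 5.45, 5.50 and 5.69, both within the background range. Nisch, nischarin, a candidate imidazoline receptor protein, had 10.75, 10.69 and 10.73 at rank 384. Nisch was the single gene of 14 measured adrenergic, imidazoline and dopamine receptor genes above the upper landmark, and the next was Drd4, a dopamine receptor, at 6.73. Of 14 serotonin receptor genes Htr3a, a serotonin-gated channel, was likewise alone above it, with 9.96, 9.90 and 9.59, and Htr6 came next at 5.02. Glutamate and GABA receptor genes had 4 of 30 above it: Grin1 (9.39), Grin2c (8.38), Gabbr1 (8.12) and Grik5 (7.83).

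Sodium and potassium channels had small shares above the upper landmark, and calcium channels a share near that of all named genes (31.5%). Scn3b, an auxiliary beta subunit of sodium channels, had 10.70, 10.65 and 10.66 and was the only 1 of 12 sodium channel genes above the upper landmark, with the pore-forming Scn8a next at 6.58. Of 88 potassium channel genes 8 lay above it, led by the acid-sensitive leak channel Kcnk3 (10.25), the calcium-activated channels Kcnn3 (9.77) and Kcnma1 (8.83), and Kcnc4 (8.29). Of 25 genes with calcium channel symbols 9 did, led by Cacng7 (10.15), Cacnb3 (9.63), Cacna2d1 (8.96) and Cacng2 (8.49). Among 20 TRP channels the highest were Trpm7 (8.82), Trpv2 (8.72), Trpc1 (7.48) and Trpc2 (6.60). In cyclic AMP signalling, Adcy6 (8.22) and Adcy3 (7.97) were the 2 adenylyl cyclases of 10 above the upper landmark, and Rgs4, a brake on G proteins, led its family at 9.94.

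Filament genes combined neuronal and simple-epithelial members. Ina, the neuronal filament alpha-internexin, had 12.14, 12.23 and 12.20 at rank 33, and Prph, peripherin of peripheral neurons, averaged 10.16. The keratin pair of simple epithelia was bright as well, with Krt18 at 11.51, 11.44 and 11.71 and Krt8 at 11.44, 11.47 and 11.59. The other feature of Krt18 was dimmer but still above the background features. Vim, the filament of mesenchymal cells, had 4.83, 4.89 and 4.85, and of 48 keratin symbols only Krt18, Krt8 and Krt7 (7.79) lay above the upper landmark. Of 30 neuronal cytoskeleton and growth genes 19 lay above the upper landmark, 8 between and 3 at or below the lower one, with a median of 8.82. Tuba1a (11.88), Dpysl2 (11.17) and Stmn2 (11.08) were among the highest of 30, while Gap43, the growth cone protein, Marcks, another membrane-bound growth protein, and Dcx, doublecortin of migrating neurons, closed the group at 4.15, 4.52 and 3.95. Nefh averaged 9.67 and Nefl 5.12, both neurofilament subunits. Dpysl3 averaged 10.34 on its brightest feature and 3.20 on its dimmest, so its place depends on the feature.

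Matrix genes lay mostly between the landmarks, where presence cannot be called. Of 42 collagen genes none exceeded the upper landmark, 40 lay between and 2 at or below the lower one. Their median was 5.63, against 6.05 over all named genes, and the highest was Col18a1 at 7.12. Among 25 matrix and integrin genes 6 exceeded the upper landmark, 15 lay between and 4 at or below the lower one, with a median of 5.97. The integrins Itgb1 (10.59), Itgav (9.11) and Itga1 (8.59), and Timp2 (8.38) led. Sparc, a secreted matrix glycoprotein, had 7.68, 7.71 and 7.69, just above the brightest background feature. Fn1, fibronectin, averaged 4.66.

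Markers of other cell types were nearly all within or below the background range. This is only a limited check on the labelled cell type. Presence cannot be called within that range, and the upper landmark was added after the values were seen. The marker counts compare with 31.5% of all named genes above the upper landmark and 68.5% above the lower one. Of 114 measured markers of adrenal cortex, Schwann and sustentacular cells, glia, central neurons, hepatocytes, muscle, blood, endothelium, fibroblasts, pancreas, kidney and germ cells, 2 exceeded the upper landmark, 61 lay between the landmarks and 51 at or below the lower one. Their median was 4.88. The first of the 2 was Thy1, listed as a fibroblast marker but also a surface protein of neurons, with 11.60, 11.56 and 11.64. The second was Slc17a7, the vesicular glutamate transporter of cortical neurons, with 8.18, 8.03 and 8.13. For the adrenal cortex, the tissue around the medulla, Star averaged 5.23, Cyp11a1 4.83, Cyp17a1 3.89 and Mc2r 3.16. For sustentacular and Schwann cells S100b averaged 4.88, Sox10 5.54 and Fabp7 3.03. The lowest fibroblast markers, Dcn, Postn and Lum, averaged 3.12, 3.06 and 2.17, and the collagen Col1a1 6.32. The lowest blood marker, Ptprc, averaged 3.11 and the highest, Cd79a, 5.89. Alb of hepatocytes averaged 4.10 and Hnf4a, the highest of that list, 5.99. The lists differed in how many markers passed the lower landmark: 12 of 13 for muscle, 7 of 8 for Schwann and sustentacular cells, 7 of 10 for glia, 7 of 11 for fibroblasts, 5 of 7 for adrenal cortex, 5 of 9 for endothelium, 5 of 11 for central neurons, 5 of 11 for pancreas and kidney, 4 of 12 for hepatocytes, 3 of 12 for blood and 3 of 10 for germ cells. Beside Thy1 and Slc17a7, the highest were Acta1 of muscle at 7.21, Cnp of oligodendrocytes at 7.07 and the protamine Prm2 at 7.05, all within the background range. Genes of the Y chromosome were bright, with Ddx3y at 9.75, 9.69 and 9.80 and Eif2s3y at 9.22, 9.23 and 9.24, in a line known to come from a male rat. Usp9y, on the same chromosome, averaged 2.45. The second feature of Eif2s3y read 5.16.

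**Figure D4:**
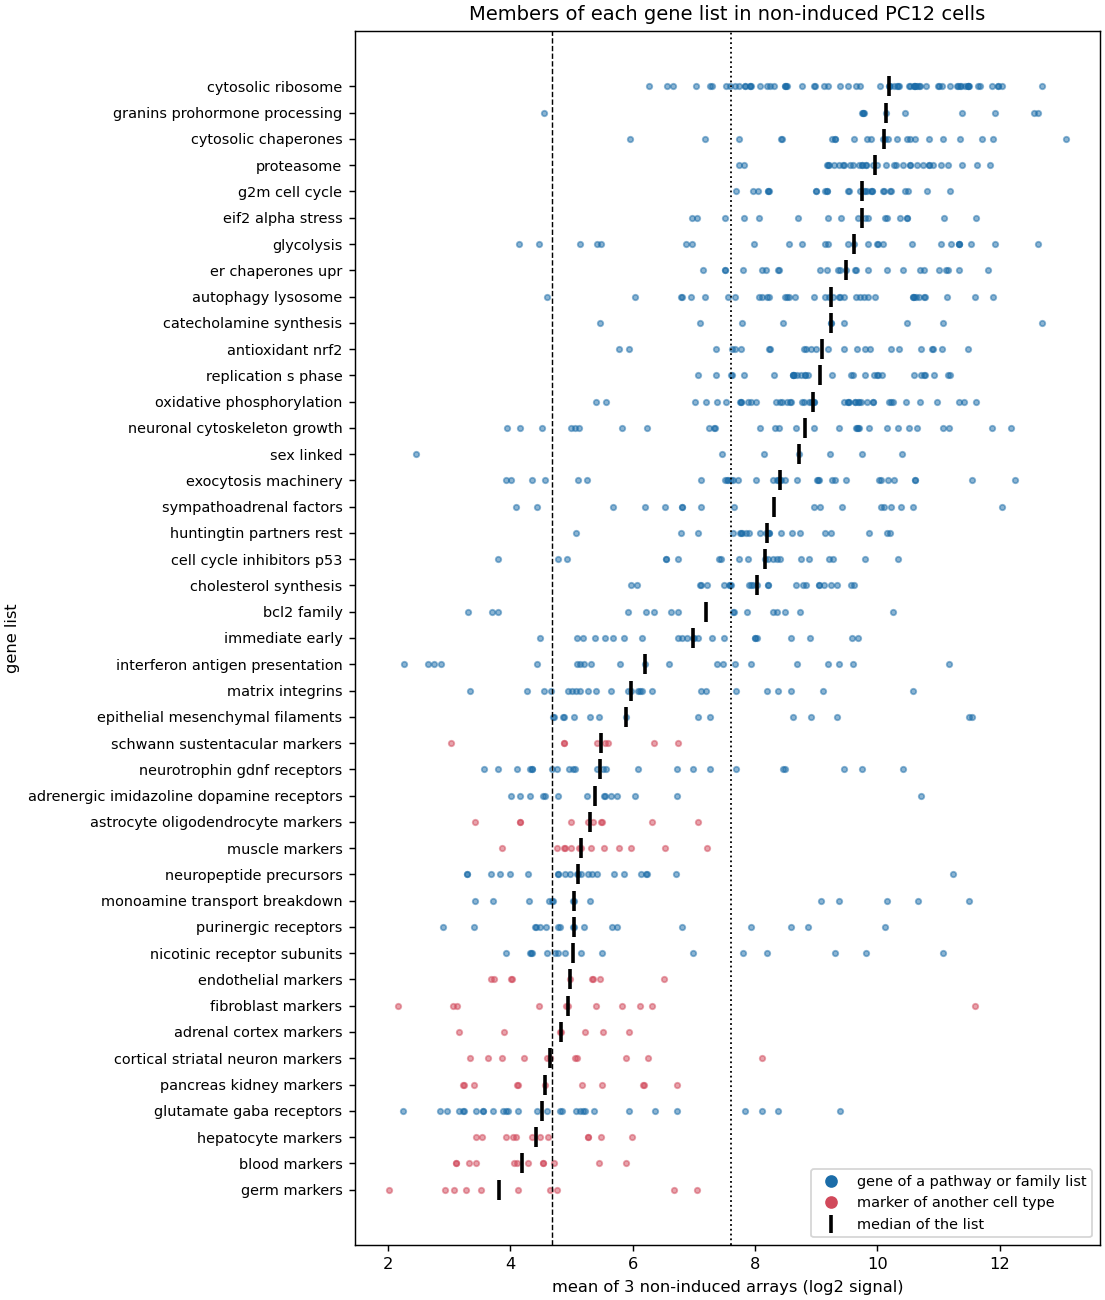
Mean log2 signal of every measured member (points) of 43 gene lists on the 3 non-induced arrays, ordered by the list median (bar), with markers of other cell types in red. The dashed line is at 4.68 and the dotted line at 7.61 log2 units. Medians of the ribosome, granin, chaperone and proteasome lists lie near 10, and all lists of other cell types have medians under 5.5.

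Genes tied to the study's disease protein were moderate to bright. Htt, huntingtin itself, had 7.77, 7.66 and 7.85, close to the brightest background feature. The feature cannot be assigned to the rat gene or the transgene, since which part of the transcript its probes cover was not analysed here. Of 22 measured huntingtin partners and REST-related genes 19 exceeded the upper landmark, led by Hdac1 (10.21), Grb2 (10.16), Rcor1 (9.86) and Hdac2 (9.25). Hap1, huntingtin-associated protein, averaged 9.14. Rest, the repressor of neuronal genes that huntingtin is known to hold in the cytoplasm, had 5.19, 5.10 and 4.92, the lowest of the group and inside the background range, while its co-repressors Rcor1 and Hdac1 were bright.

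Genes of the eIF2 alpha stress pathway, through which guanabenz is also known to act, had a median of 9.75, and 15 of 18 exceeded the upper landmark. The phosphatase catalytic subunits led, with Ppp1ca at 11.62, Ppp1cc at 10.49 and Ppp1cb at 10.37, together with Asns, an amino acid synthesis target of Atf4, at 11.10. Of the regulatory subunits, the constitutive Ppp1r15b averaged 8.71 and the stress-induced Ppp1r15a had 6.99, 6.90 and 7.02. Ppp1r15a was the lowest of the group, with Atf3 (7.05) and Ddit3 (7.52) next, all 3 being genes that stress induces. Atf4, the factor upstream of them, averaged 9.69, and Eif2ak3, the kinase PERK, 7.82.

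Protein folding and disposal genes were bright nearly throughout. All 34 proteasome subunits exceeded the upper landmark, with a median of 9.96 and Psmb7 (11.84), Psmd2 (11.64), Psmc1 (11.39) and Psmb3 (11.16) on top. The lowest proteasome genes were Psmb10 (7.74), a subunit of the immunoproteasome, Psmb1 (7.82) and Psma7 (9.17). Of 24 cytosolic chaperones 22 exceeded it, led by Hspa8 (13.08), Hsp90aa1 (11.89), Hsp90ab1 (11.71) and Stip1 (11.36). Hspa1a, the stress-inducible partner of the constitutive Hspa8, averaged 5.96 and was the lowest. In the endoplasmic reticulum 22 of 25 chaperone and unfolded protein response genes exceeded it. Calr (11.81), Pdia3 (11.34), Hspa5 (11.16) and Canx (11.12) led, and Dnajb9 (7.15), Ern1 (7.51) and Derl2 (7.52) closed the group. Of 38 autophagy and lysosome genes 31 exceeded it, led by the proton pump subunit Atp6v1b2 (11.90), the protease Ctsb (11.61) and the glucosidase Gaa (11.13). Mitf, a factor for lysosomal and pigment genes, was lowest at 4.60, and Gpnmb followed at 6.04.

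Cell cycle and core metabolic genes were mostly bright. All 28 G2/M genes and 27 of 30 replication genes exceeded the upper landmark, with Plk1 (11.19), Mki67 (10.81) and Racgap1 (10.51) leading the first and Rrm1 (11.19), Rrm2 (11.16) and Tk1 (10.93) the second. Cdk inhibitors diverged: Cdkn1a averaged 9.80, Cdkn2a 4.93 and Cdkn2b 4.78. Of 27 glycolysis genes 20 exceeded the landmark, including Gapdh (12.63), Gpi (11.92), Pgam1 (11.54) and Pkm (11.34), and the tissue-restricted Ldhc (4.46), Pklr (5.14) and Slc2a2 (4.14) did not. The other feature of Pgam1 read 6.32, so its place depends on the feature. Ldha, the lactate-forming subunit, had 11.33, 11.29 and 11.39, and Ldhb had 6.83, 6.90 and 6.87. Of 46 nuclear genes of oxidative phosphorylation 40 exceeded it, and Cox6a1 (11.62) led while the muscle form Cox6a2 (5.56) was among the lowest. Of 25 cholesterol synthesis and regulation genes 17 exceeded it, led by Acat2 (9.61) and Sc5d (9.58), with Abca1, the cholesterol exporter, lowest at 5.98. Ribosomal protein genes had the highest list median apart from the 4 marker genes, 10.20 over 70 genes. Granins and prohormone-processing genes (10.14) and cytosolic chaperones (10.11) followed closely. Many ribosomal genes have several features, such as Rpl17 with 4.25 and 10.80, and the brightest was used. The first place of the list may depend on that rule. Its highest genes were Rps29 (12.69), Rpl4 (12.03), Rpl37a (11.98) and Rps4x (11.98). The feature IDs of Rps29 and Rpl37a name another chromosome than RefSeq and that of Rps4x names none. The dimmest features of these 3 read 11.76, 9.76 and 10.75, so the order of the leading genes depends on the feature.

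Survival and defence genes were uneven. In the BCL2 family Mcl1 led at 10.25 and the pro-death Bak1 followed at 8.74, while Bcl2 itself had 3.25, 3.23 and 3.44, the lowest of 16. Antioxidant genes were bright, with 21 of 24 above the upper landmark and Ftl1 (11.49), Txn1 (11.07), Sod1 (10.92) and Gstm1 (10.90) leading. Nqo1, a standard NRF2 target, averaged 5.78 and was the lowest of them. B2m, the light chain of MHC class I, averaged 11.17, whereas the interferon-induced Ifit1, Ifit3 and Ifih1 averaged 2.25, 2.65 and 2.75. Immediate early genes, which nerve or growth factor stimuli switch on, had a median of 6.99, with 7 of 23 above the upper landmark, close to the 31.5% of all named genes. Sik1 (9.69), Jund (9.58), Arc (8.89) and Srf (8.59) led, Fos averaged 6.15 and Npas4 was lowest at 4.49. Vdr, the vitamin D receptor, had 7.43, 7.37 and 7.48, just under the upper landmark.

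The 30 highest named genes mixed chromaffin, housekeeping and repetitive genes. Rn7sl1, the RNA of the signal recognition particle, had 13.22, 13.24 and 13.12 and rank 1. COX1, a mitochondrial gene, followed with 13.11, 13.25 and 13.12, and Hspa8, Actg1 and Eef1a1 came next at 13.08, 12.90 and 12.88. Besides Th, Chgb, Chga and Syp, the group held Hist2h3c2, Rn5-8s, Rps29, Gapdh, napor, Hist1h4m, Rpph1, Tuba1b, Ubbl2, COX2, Ppia, Tubb5 and Tuba1c. Its remaining members were the pseudogene symbols Hspa8-ps12, Hsc70-ps2, Hspa8-ps25 and Hspa8-ps23, and LOC102549694, LOC100362384, LOC100360087 and RGD1560017. Of the 29 neighbouring pairs in this order 27 had overlapping arrays, so the ranks among them are not resolved. Probes for Hspa8, for the tubulins and for their processed copies may share transcripts, and signal cannot be split between a gene and a near-identical copy. Among the 100 highest genes 17 carried pseudogene symbols.

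The annotation limits what the top of the range can show. Of the 100 highest features that are not controls, 3 carried 1 symbol, and of the 1000 highest 116 did, against 34.1% of all such features. Above the highest named gene lay 46 features with no symbol or several, and the brightest read 13.68. The chromosome in the feature ID equalled the RefSeq chromosome of its gene for 21590 of 21810 named genes, but for 20 of 23 in the 30 highest. The 3 that differed were Actg1, Eef1a1 and Rps29. Of the 1182 genes with more than 1 feature, 241 (20.4%) had features more than 2 log2 units apart, among them Ppia (4.92 and 12.36 at the ends) and Hspa8 (6.26 and 13.08).

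Promoter composition differed between the bands of signal. Of the protein-coding named genes 83.0% had a RefSeq window of 250 bases. Above the upper landmark the median GC content of the window was 61.2%, between the landmarks 58.0% and at or below the lower one 45.2%. The GC box GGGCGG was present in 63.4%, 48.3% and 17.0% of windows in the same order, the TATA box TATAAA in 6.00%, 8.62% and 21.8%, and the cyclic AMP response element TGACGTCA in 3.22%, 2.25% and 1.01%. The CCAAT box was nearly even across bands, at 36.8%, 33.3% and 35.3%. Among G2/M genes, however, 19 of 24 windows (79.2%) held CCAAT, against 35.1% of all windows. Genes with GC-rich promoters may also have GC-rich probes, and brighter background for such probes is shown above, so the part of probe composition in these differences was not tested.

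Differences between the 3 arrays were small for nearly all genes. Only 108 named genes had an SD over 0.3, of which 61 lay above the lower landmark. The 15 most variable above that landmark all had their highest value on array 1, and 39 of the 50 most variable did. The largest spread was that of LOC102550812, an uncharacterised locus, with 6.80, 5.14 and 4.76. The locus Vof16 had 8.74, 7.52 and 7.46, and LOC102550366 8.55, 7.48 and 7.78. Egln3, an oxygen-sensing prolyl hydroxylase that hypoxia induces, had 9.87, 8.81 and 9.41, with array 2 as the lowest. Stc1, a secreted hormone also known as a hypoxia target, showed the same order with 8.11, 7.40 and 7.99, though it was not among the 15 and was picked after its values were seen. Slit2, an axon guidance ligand, had 5.89, 5.04 and 4.89, and Slc18a3, the vesicular acetylcholine transporter, 6.99, 6.26 and 6.08. Ltk, a receptor kinase, averaged 7.63 with array 1 highest at 8.10. Dppa2, Pirt, LOC102550525 and LOC102548010 were further members of the 15, all with means between the landmarks.

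**Figure D5:**
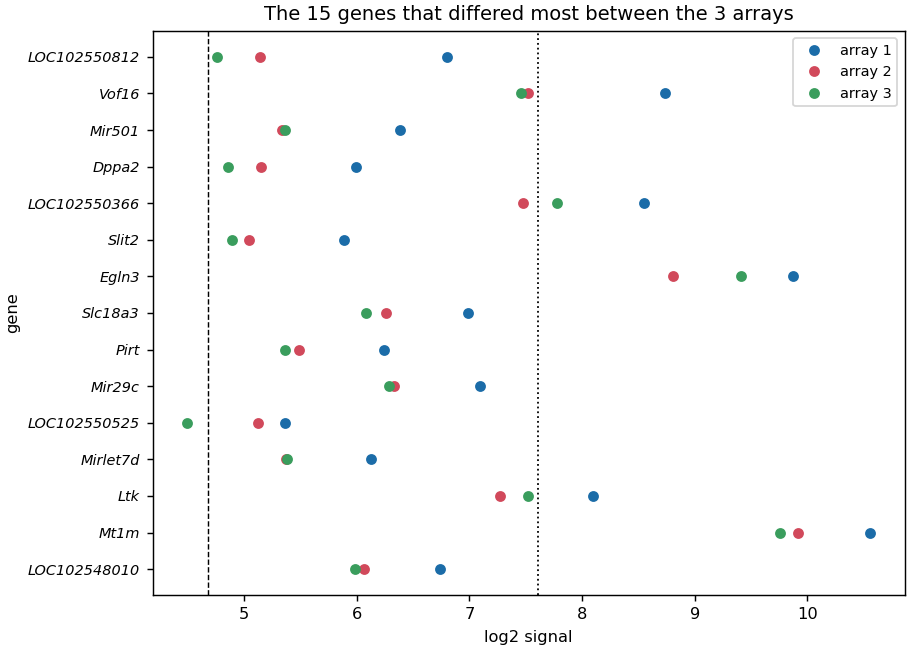
Log2 signal on each of the 3 non-induced arrays (coloured points) of the 15 genes above the lower landmark with the largest SD. The dashed line is at 4.68 and the dotted line at 7.61 log2 units. Array 1 is the rightmost point in every row, from LOC102550812 (6.80) to Mt1m (10.56).

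The 3 brightest metallothioneins, small zinc- and copper-binding proteins, had the same order across the arrays. Mt1m had 10.56, 9.92 and 9.76, Mt2A 9.86, 9.32 and 9.12, and Mt1 9.01, 8.53 and 8.28. All 3 were highest on array 1 and lowest on array 3. Their sequences are similar, so the probes may read shared transcripts, and the Mt1 feature ID names another chromosome than RefSeq. The dimmer members varied less, within the background range: Mt3 had 7.36, 7.20 and 7.14, Mt1f 6.65, 6.55 and 6.38, and Mt4 4.72, 4.83 and 4.73. Mt3 and Mt1f followed the same order, and Mt4 was highest on array 2. The family's 6 genes had a median SD of 0.254, against 0.057 over all named genes, and 3 of them lay above the upper landmark.

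Among the most variable genes were 3 microRNA genes, Mir501, Mir29c and Mirlet7d. Mature RNA sequences of these genes are given from RefSeq to show which molecules the symbols stand for. Those of Mir3542 and Mir678, which were among the 4 highest microRNA genes, are given as well. Mir29c and Mirlet7d each have a further mature RNA, rno-miR-29c-5p and rno-let-7d-3p, that is not shown. Capitals mark the seed, bases 2 to 8.
rno-miR-501-5p: aAUCCUUUgucccuggguga
rno-miR-501-3p: aAUGCACCcgggcaaggauuugg
rno-miR-29c-3p: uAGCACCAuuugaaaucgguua
rno-let-7d-5p: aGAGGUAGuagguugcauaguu
rno-miR-3542: aAGGCUCUucuuuccuugcag
rno-miR-678: gUCUCGGGgcaaggacuggagg
No 2 of these share a seed. A whole-transcript array cannot tell a hairpin from a longer transcript across it, so the values are those of the gene's feature and not of the mature RNA. Mir501 had 6.38, 5.34 and 5.36, Mir29c 7.09, 6.33 and 6.29, and Mirlet7d 6.13, 5.37 and 5.38. In each of the 3, array 1 stood apart and arrays 2 and 3 were nearly equal, within the background range. Of 382 microRNA genes with a feature, 6 exceeded the upper landmark. Mir544 read 10.37 but its feature ID names another chromosome than RefSeq, Mir3542 averaged 9.79, Mir3577 8.76 and Mir678 8.26.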

How the data were processed

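Total RNA (250 ng) was labelled and hybridised to 1 array per sample, with 3 arrays per group in 4 groups. As deposited, each feature has a log2 signal. Affymetrix Expression Console with RMA is named, per the submitters' processing notes, with no version, and whether the 12 arrays were normalised together is not given in the sources used here. Of 70580 features 1738 controls were left out. Symbols came from the platform annotation, with 1 updated through its RefSeq gene ID. Features with 1 symbol numbered 23446, with several 505 and with none 44891. The lower landmark was part of the planned description, and the upper one was added after the values were seen. No test was run, because 1 group is described. The summary steps were tested on simulated data.

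The 44 gene lists (969 entries, 900 measured) and the 31 symbol families were chosen with earlier results of these data known. Genes to name were Th, Dbh, Chga and Phox2a, the 30 highest, the 15 most variable, the 4 highest and 3 lowest of each list, the 4 highest of each family, and selected genes of catecholamine, receptor, stress and huntingtin biology. Other members of those lists and families are named as partners or contrasts and were picked after their values were seen. Promoter and microRNA sequences are from RefSeq, assembly GRCr8. Of 382 microRNA genes 356 had a mature sequence. The number of arrays limits the precision. Python 3.11.15, pandas 2.3.3, numpy 2.4.6 and matplotlib 3.10.9 were used. Alternatives covered the lower landmark, the choice of feature, array scaling and leaving out each array. The upper landmark served as a replacement for the lower one and was not itself varied.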

Additional observations from a re-analysis of the deposited data

How the results depend on the processing

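No paired analysis was possible because the results come from 1 group and no test. With the brightest GC background feature as the landmark, chosen after seeing the data, 6961 named genes lay above it in place of 15124, and 513 list members in place of 771, since that landmark is higher. The percentile of Chga was 99.95 with the mean of a gene's features in place of the brightest, against 99.94 as reported. With only features whose ID names the RefSeq chromosome of their gene, also chosen after seeing the data, it was 99.97 for Chga and 99.99 for Th (99.96 as reported), since fewer genes then rank above them. Leaving out each array in turn gave 15123 to 15140 genes above the lower landmark and 12.64 to 12.755 for Th. The other landmarks gave 12490 to 18437 genes. The count of members above the landmark moved by over 1.5 times in 25 of 44 lists with the GC feature as landmark, in 16 with the 99th percentile of olfactory receptors, in 7 with vomeronasal receptors, in 2 with the 90th percentile and in none (0) under the remaining 9 settings. Of the 30 highest genes 26 were shared with the mean of features, 22 with the chromosome rule and 29 without array 2. No direction was at stake in any of these descriptions. Background that differs with probe composition limits what can be said of any gene under 7.61.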

Other observations

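Imprinted genes, transcribed from the maternal or the paternal copy alone, were looked up after the values had been seen, and no test was made of them. Of 37 listed, 30 were measured and 10 lay above the upper landmark, a share close to the 31.5% of all named genes, with a median of 6.31 against 6.05 over all named genes. Mest, a paternally expressed gene of fetal growth, had 12.15, 12.21 and 12.24 at rank 32. Dlk1, a paternally expressed ligand-like protein that chromaffin cells are known to make, had 12.12, 12.10 and 12.16 at rank 36. Meg3, the maternally expressed RNA that neighbours Dlk1 in mammals, had 5.23, 5.14 and 5.25, inside the background range. Gnas, the stimulatory G protein locus, averaged 11.98 and Peg3 11.14. Igf2, a paternally expressed growth factor, had 6.39, 6.41 and 6.37, its receptor Igf2r averaged 8.42, and Peg10 4.25.

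The RT1 symbols cover class I and class II genes of the rat major histocompatibility complex. Of 34 such genes 9 exceeded the upper landmark, a share near the 31.5% of all named genes. The highest were RT1-CE15 (9.63), RT1-A (9.55), RT1-CE13 (9.19) and RT1-CE4 (9.04). Where copies are near-identical, signal cannot be assigned to a single one. Cyp20a1, an orphan member, averaged 10.13 and led 73 cytochrome P450 genes, of which 2 exceeded the upper landmark.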
